A study of Mus musculus with 32 samples.

Results

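Silencing of Dnmt1 was examined in resting lung endothelial cells (ECs), that is, in cells that received no cytokine. The comparison set 4 libraries given siRNA against Dnmt1 (si-dnmt) against 4 libraries given a control siRNA (si-control), which are 8 of the 32 libraries of the series. All gene symbols of the merged count table were members by rule, with no measured value used to choose them, and 15250 of its 54429 symbols held enough counts to be tested. The series as a whole crossed both siRNAs with no cytokine, TNF, IFN, or TNF and IFN together, with 4 libraries in each of 8 groups, to ask how ECs respond to cytokines after loss of Dnmt1. The labels say IFN, which the study's methods give as interferon gamma (IFNγ). TNF was given at 10 ng/mL and IFN at 1000 U/mL, for 16 h.

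The cells were Veravec, an immortal mouse lung EC line kept in serum-rich medium with VEGF, bFGF and heparin. Both groups went through 2 rounds of lipid transfection, so the si-control cells also carried a siRNA and the transfection reagent, and untransfected cells were not analysed here. The model is 1 cell line with a partial, short-lived loss of the transcript, and the labels do not say which siRNA sequence each library received. The study calls the 4 libraries of a group biological replicates without saying what separates them, so the p-values measure the spread between these libraries.

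DNMT1 is the maintenance DNA methyltransferase. It follows the replication fork and copies the methyl marks of CpG sites from the parental strand onto the newly made strand, with UHRF1 as the reader that brings it to hemimethylated DNA. DNMT3A and DNMT3B place new marks and the TET enzymes oxidise them. Loss of maintenance methylation is known to free germline genes, imprinted genes and endogenous retroviruses from silencing, and double-stranded RNA from such elements can be read by the same cytosolic sensors that detect viruses and turn on interferon-stimulated genes. Lung ECs line the capillaries, hold the barrier, and present adhesion molecules, chemokines and antigen to passing leukocytes.

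Expression is given as CPM (counts divided by the effective library size, in units of 1000000). CPM values compare libraries for 1 gene and are not levels between genes of different length. Log2 fold changes are si-dnmt over si-control with their standard error (SE). Genes were called at an adjusted p under 0.05 in edgeR's two-sided quasi-likelihood test, adjusted by the Benjamini-Hochberg method over all 15250 genes, and "rose" and "fell" are used for called genes.

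Total counts ran from 19048427 to 22146647 per si-control library and from 21312850 to 26901175 per si-dnmt library, with 19995 to 21116 and 21139 to 22569 genes detected. Mitochondrially encoded genes took 4.43% to 5.77% of counts in si-control and 3.27% to 4.03% in si-dnmt, without overlap. Replicates 1 and 2 stood apart from replicates 3 and 4 in both groups. The labels do not name these sets, which were defined from earlier results of these same data. The first principal component held 47.2% of the variance and separated the replicate sets within each group and the siRNAs within each set. The second, with 26.0%, placed all si-control libraries above all si-dnmt libraries and also separated the sets within each group. The counts over all genes, the list medians and the named genes whose change differed between the sets are therefore also given within replicates 1 and 2 and within replicates 3 and 4, estimated together in 1 model. The 8 endothelial markers summed to 4959 to 7423 CPM under control siRNA and 4599.5 to 7148 CPM after silencing, so the libraries were endothelial by this measure. The leukocyte markers Cd3e and Adgre1 and the epithelial marker Sftpc were at 0 in all 8 libraries, and Ptprc, Itgam, Epcam and Krt5 did not exceed 3 counts in any. Other markers on these lists were present. The 8 leukocyte markers summed to 191 to 227 CPM under control siRNA and 140.1 to 187 CPM after silencing, nearly all from Lyz2 (82.9 ± 45.3 and 37.2 ± 27.6 CPM, SD, n = 4) and Cd68 (125 ± 44.4 and 119 ± 14.0 CPM). The 8 fibroblast markers summed to 100.5 to 166 CPM under control siRNA and 94.2 to 149.8 CPM after silencing, mostly from Thy1 (126 ± 36.3 and 110.4 ± 26.7 CPM). None of the 3 genes was called, and what these levels contribute to other results was not tested.

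The target was lower in every si-dnmt library. Dnmt1 (ENSMUSG00000004099) measured 90.1, 89.1, 153 and 148 CPM in control replicates 1 to 4 and 10.3, 12.4, 6.45 and 6.53 CPM after silencing. The control level was thus higher in replicates 3 and 4, where the silenced level was also lower. The fitted fall was 13.5-fold (log2 fold change −3.76 ± 0.37, adjusted p = 4.77e-08), and it was −2.98 within replicates 1 and 2 and −4.54 within replicates 3 and 4. The sets differed in this fall (adjusted p = 7.12e-08, edgeR test of the set difference).

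The de novo enzymes moved the other way. Dnmt3b measured 2.67, 3.55, 2.15 and 2.65 CPM under control siRNA and 7.08, 8.04, 6.82 and 6.36 CPM after silencing, so each silenced library held more than every control library. It rose 2.57-fold (1.36 ± 0.18, adjusted p = 4.2e-06), and Dnmt3a rose from 31.4 ± 2.16 to 48.1 ± 3.81 CPM (SD, n = 4; 0.62 ± 0.09, adjusted p = 2.31e-05). Dnmt3c, a rodent-specific de novo enzyme of the male germ line, went from 2, 2, 1 and 2 counts in si-control to 20, 23, 19 and 28 counts in si-dnmt. By summed counts this was 10.5-fold (95% exact Poisson interval 4.91 to 27.0) higher (adjusted p = 3.56e-06). Dnmt3c is a near copy of Dnmt3b, so its reads cannot be told apart with certainty from those of Dnmt3b, and its value is uncertain.

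The partners and erasers of methylation did not follow as a group. Tet3, which oxidises 5-methylcytosine, fell (−0.64 ± 0.17, adjusted p = 0.00784), as did Ehmt2, the G9a histone H3K9 methyltransferase (−0.79 ± 0.14, adjusted p = 0.000195). Uhrf1 measured 39.7, 33.1, 87.7 and 78.03 CPM under control siRNA and 35.9, 38.9, 46.8 and 53.9 CPM after silencing. Its overall change of −0.44 ± 0.27 missed the threshold (adjusted p = 0.281), while the change was 0.04 within replicates 1 and 2 and −0.72 within replicates 3 and 4, a difference that passed the test (adjusted p = 0.000281). Tet2 gave 0.08 ± 0.14 (adjusted p = 0.733), and Tet1, with a highest count of 14, was not tested. Of the 24 methylation genes tested, 2 rose (8.33%, beside 9.57% of all genes), 4 fell (beside 8.89% of all genes) and 18 were not called. The median was −0.14 beside −0.00 over all genes. With the replicate block, 4 rose and 8 fell.

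**Figure D1:**
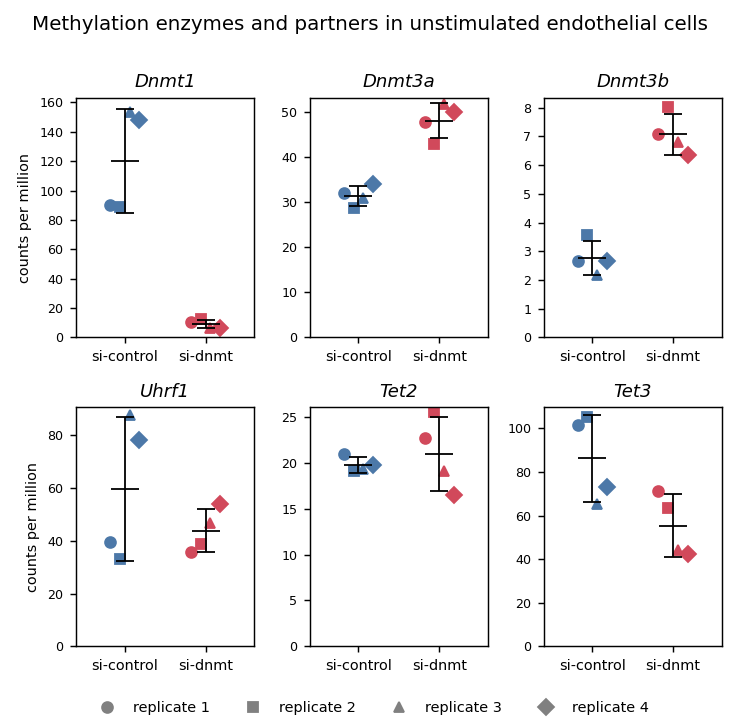
CPM of 6 genes of DNA methylation in the 4 si-control and 4 si-dnmt libraries, with the marker shape giving the replicate and the black bars the mean and SD. Dnmt1 sat between 89.1 and 153 CPM in si-control and between 6.45 and 12.4 CPM in si-dnmt, while every si-dnmt value of Dnmt3a and Dnmt3b lay above every si-control value.

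Across the transcriptome, 2815 genes were called (18.5% of those tested), 1460 higher (9.57%) and 1355 lower (8.89%). This fit shared its estimate of the spread over all 32 libraries, and a fit of the 8 libraries alone called 2007, 1020 higher and 987 lower. A change of at least 2-fold was reached by 386 of the higher genes (2.53% of all) and 230 of the lower genes (1.51%). All 4 si-dnmt libraries lay above all 4 si-control libraries for 1692 genes (11.1%) and below them for 1537 (10.1%). Among called genes, 1221 of those higher and 1087 of those lower had such groups. With the replicate number as a block, 4942 genes were called (32.4%), 2530 higher (16.6%) and 2412 lower (15.8%). These shares, without and with the block, are the background for the counts of list members. Scaling to library totals in place of TMM factors shifted the split to 2127 higher and 940 lower.

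Among genes without overlap and with a mean CPM of at least 1 in the higher group, the largest rises crossed several classes of gene. Casp1, the protease that matures IL-1β and cleaves gasdermin D, had 2, 2, 3 and 1 counts in si-control and 35, 41, 33 and 30 counts in si-dnmt. The rise was 14.2-fold (95% exact Poisson interval 7.03 to 33.7) by summed counts (adjusted p = 1.55e-06). P2rx7, the ATP-gated channel that triggers the NLRP3 inflammasome, rose from 0.188, 0.265, 0.615 and 0.314 CPM to 1.38, 2.95, 9.28 and 7.05 CPM (3.87 ± 0.71, adjusted p = 0.000255). Both genes were near absent in control cells and their groups did not overlap, but P2rx7 was higher in replicates 3 and 4 than in replicates 1 and 2 after silencing, whereas Casp1 was not.

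Nox1, the catalytic subunit of an NADPH oxidase that makes superoxide, rose from 0.282, 0.477, 0.396 and 0.359 CPM to 3.78, 4.19, 6.96 and 4.80 CPM (3.70 ± 0.66, adjusted p = 0.000223). Ubd, a ubiquitin-like protein induced by inflammatory cytokines, rose from 0.132–0.404 to 2.49–5.00 CPM (3.79 ± 0.79, adjusted p = 0.00105). H2-Q6, a non-classical MHC class I gene, rose from 1.11–1.97 to 8.86–18.96 CPM (3.27 ± 0.71, adjusted p = 0.00144), with reads that may be shared with its neighbours in the H2-Q cluster. Among silenced libraries Ubd and H2-Q6 were higher in replicates 1 and 2 than in 3 and 4, and Nox1 was lower in replicates 1 and 2, but the set difference was called for none of these 3 genes.

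Muscle and neuronal genes were also among the largest rises. Myl9, a regulatory light chain of smooth muscle myosin, measured 0.610, 0.265, 1.36 and 1.52 CPM under control siRNA and 3.83, 7.27, 17.3 and 13.9 CPM after silencing (3.47 ± 0.60, adjusted p = 0.000149). Acta1, skeletal muscle actin, had 0 to 3 counts per si-control library and 6 to 62 per si-dnmt library, or 22.5-fold (95% exact Poisson interval 9.40 to 70.3) by summed counts (adjusted p = 0.000923). Nefm, a neurofilament subunit, rose from 0.563–1.38 to 6.99–17.2 CPM (3.31 ± 0.44, adjusted p = 4.44e-06), and Fat2, an atypical cadherin, from 0.0439–0.359 to 1.02–2.59 CPM (3.53 ± 0.51, adjusted p = 1.22e-05). Sstr5, a somatostatin receptor, rose from 0–0.264 to 0.770–3.23 CPM (4.04 ± 0.64, adjusted p = 4.41e-05). In each of these genes the silenced values in replicates 3 and 4 exceeded those in replicates 1 and 2, without a called set difference.

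Genes that went from at most 3 counts in every si-control library to at least 10 in every si-dnmt library numbered 5. They were Casp1, the chemokine Cxcl9, Dnmt3c, Grhl2 and the predicted gene Gm28321, the last named here after its values were seen. Grhl2, a transcription factor of epithelial cells, had 1, 1, 0 and 0 counts in si-control and 19, 10, 38 and 35 counts in si-dnmt, or 41.8-fold (95% exact Poisson interval 11.3 to 350.0) by summed counts (adjusted p = 2.23e-07). The epithelial markers summed to 7.13 to 22.7 CPM under control siRNA and 6.94 to 16.4 CPM after silencing, and Krt18, the 1 marker of the 8 with enough counts to be tested, made up most of both sums and was not called (−0.36 ± 0.40, adjusted p = 0.597). The other 7 were too low for a change to be detectable at this depth. No gene met the reverse rule (0 genes).

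By the same limits of overlap and mean CPM, the largest falls after Dnmt1 crossed several classes of gene. Aqp1, the water channel of capillary endothelium, measured 225, 234, 213 and 219 CPM under control siRNA and 56.7, 52.9, 11.2 and 19.8 CPM after silencing (−2.67 ± 0.45, adjusted p = 0.000116). The groups were far apart, and the silenced level was lower in replicates 3 and 4, a difference between sets that passed the test (adjusted p = 3.36e-05). Cd28, best known as a T-cell co-stimulatory receptor, fell from 1.01–1.79 to 0.128–0.375 CPM (−2.67 ± 0.53, adjusted p = 0.000613).

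Grem1, a secreted BMP antagonist, fell from 3.16–6.94 to 0.307–1.24 CPM (−2.48 ± 0.33, adjusted p = 5.15e-06), and Btnl9, a butyrophilin-like gene of capillary ECs, from 1.23–5.25 to 0.313–1.03 CPM (−2.36 ± 0.59, adjusted p = 0.00482). Serpinb9, an inhibitor of granzyme B, measured 34.2, 33.2, 45.7 and 43.6 CPM and then 9.08, 10.9, 8.53 and 11.6 CPM (−1.97 ± 0.22, adjusted p = 2.61e-07). Nov (also called Ccn3), a matricellular protein, fell from 19.9–33.3 to 5.35–7.58 CPM (−1.98 ± 0.15, adjusted p = 7.82e-10), and Eif5a2, a translation factor, from 19.3–25.2 to 4.17–7.08 CPM (−1.97 ± 0.19, adjusted p = 3.33e-08). The remaining falls of this rank were the homeodomain gene Hopx (−2.34 ± 0.39, adjusted p = 7.95e-05), the tetraspanin Tspan13 (−2.03 ± 0.44, adjusted p = 0.0016), the matrix protein Tgfbi (−1.96 ± 0.43, adjusted p = 0.00171) and Prg2, the eosinophil major basic protein (−2.34 ± 0.70, adjusted p = 0.0192). The groups did not overlap in these genes, which the naming rule required. The call of Prg2 was lost when control replicate 1 or 2, or silenced replicate 3 or 4, was left out, where the log2 fold change ran from −2.59 to −2.02 over the fits without 1 library.

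**Figure D2:**
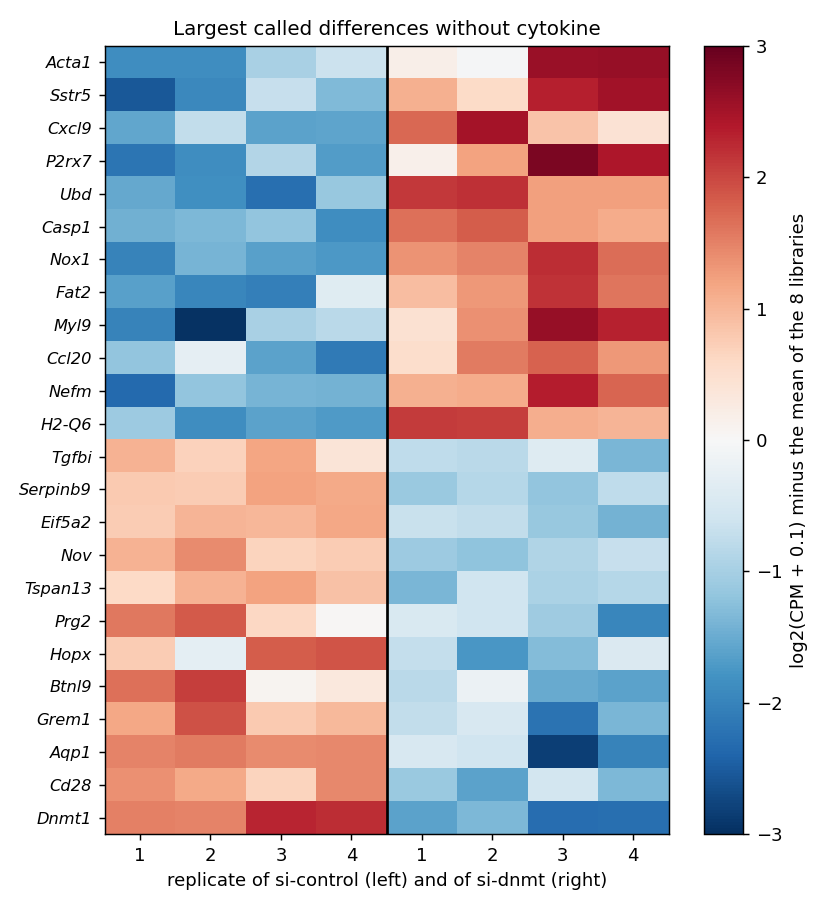
Heat map of the 12 largest called rises and 12 largest called falls under the naming rule, 1 row a gene and 1 column a library. The rule took genes without overlap and with a mean CPM of at least 1 in the higher group, and left out predicted genes and pseudogenes. Colour gives log2(CPM + 0.1) minus the mean of the 8 libraries of that gene. The 4 si-dnmt columns stood apart from the 4 si-control columns in every row, which the rule required, with Dnmt1 at the bottom and Acta1 at the top.

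In absolute CPM the largest gains included secreted and stress genes. Thbs1, the anti-angiogenic matrix protein thrombospondin-1, rose from 1307, 1180.5, 1196 and 1227 CPM to 2537, 2832, 4386 and 3512 CPM (1.43 ± 0.20, adjusted p = 7e-06). Csf1, the macrophage growth factor, rose from 379–421 to 1008–1435 CPM (1.62 ± 0.14, adjusted p = 3.26e-09) and Ptgs2, the inducible cyclooxygenase COX-2, from 232–351 to 483–1291 CPM (1.61 ± 0.35, adjusted p = 0.00145). Rnf213, a large ubiquitin ligase induced by interferon, went from 1115, 998, 1163 and 1132 CPM to 2572, 2265, 1545 and 1632 CPM (0.86 ± 0.17, adjusted p = 0.000602). Rnf213 gained most in replicates 1 and 2, and Ptgs2, Csf1 and Thbs1 in replicates 3 and 4, and all 4 differences between sets passed the test (adjusted p = 0.00106, 0.000288, 0.0258 and 0.016).

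The largest absolute losses were mitochondrially encoded transcripts and the constitutive chaperone Hspa8, which fell from 3342–3840.3 to 2324–2544 CPM (−0.56 ± 0.10, adjusted p = 0.0002). Cytochrome oxidase subunits mt-Co3 (−0.76 ± 0.13, adjusted p = 0.000178) and mt-Co1 (−0.40 ± 0.11, adjusted p = 0.0123), the ATP synthase subunit mt-Atp6 (−0.60 ± 0.14, adjusted p = 0.00354) and the complex I subunit mt-Nd4 (−0.58 ± 0.12, adjusted p = 0.00108) fell. Of 23 mitochondrially encoded genes tested, 9 fell and 0 rose, beside 8.89% and 9.57% of all genes, and 22 had a change below 0. Without si-control replicate 2, which had the highest mitochondrial share, the call of mt-Co1 was lost (adjusted p = 0.0768) and the change of mt-Nd4 was −0.39. With library totals in place of TMM factors the call of mt-Co1 was also lost.

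Of the interferon pathway genes more than the background share were called higher in resting cells. Over the 5 interferon-related lists, 119 distinct genes were tested, of which 66 rose (55.5%), 0 fell and 53 were not called, beside 9.57% called higher over all genes. Sensors of foreign nucleic acid, which start the pathway, had 16 of 23 tested members higher and 0 lower, a median of 0.79 beside −0.00 over all genes. Zbp1, a sensor of Z-form nucleic acid that drives necroptosis, measured 3.43, 2.76, 3.87 and 2.06 CPM under control siRNA and 35.1, 38.2, 10.5 and 13.0 CPM after silencing (2.99 ± 0.31, adjusted p = 1.13e-07). Oas2, which makes the 2-5A messenger that activates RNase L, went from 2.02, 1.33, 4.70 and 4.31 CPM to 29.9, 26.9, 12.5 and 14.9 CPM (2.75 ± 0.32, adjusted p = 6.03e-07). Both were raised in all 4 silenced libraries, by more in replicates 1 and 2.

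The family members Oas3 (2.17 ± 0.28, adjusted p = 3.56e-06) and Oas1g (2.19 ± 0.33, adjusted p = 2.46e-05) rose as well, the latter with reads that near copies of Oas1 may share. The RNA helicases MDA5 and RIG-I, which signal through MAVS, rose by less. Ifih1 (MDA5) went from 83.1–94.2 to 140.5–202 CPM (0.97 ± 0.21, adjusted p = 0.00124) and Ddx58 (RIG-I) from 216–250.5 to 335–385 CPM (0.59 ± 0.11, adjusted p = 0.000221). Ifnb1, the interferon that these sensors induce, had 0 to 4 counts per si-control library and 0 to 4 per si-dnmt library and was not called (adjusted p = 0.893). A change in Ifnb1 was not detectable at this depth.

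The transcription factors and regulators of the pathway had 12 of 23 members higher and 0 lower (median 0.31), or 14 higher and 2 lower with the replicate block. Irf7, which amplifies type I interferon, measured 112, 70.1, 124 and 111 CPM under control siRNA and 399.9, 383, 161 and 198 CPM after silencing (1.45 ± 0.30, adjusted p = 0.000939). Nlrc5, the transactivator of MHC class I genes, went from 18.5–24.4 to 36.9–75.3 CPM (1.39 ± 0.24, adjusted p = 0.000147), and Irf5 from 0.265–0.610 to 1.88–3.51 CPM (2.48 ± 0.32, adjusted p = 2.79e-06). Batf2, a basic leucine zipper transcription factor, also rose (2.08 ± 0.42, adjusted p = 0.000683). Irf7 was nearer to its control level in replicates 3 and 4, and Irf5 was higher there.

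Of the antiviral effectors, 16 of 34 rose and 0 fell, or 22 rose and 1 fell with the replicate block, with a median of 0.66. Mx1, a GTPase that traps viral nucleocapsids, measured 1.36, 0.795, 3.38 and 3.41 CPM and then 8.59, 9.67, 7.64 and 7.58 CPM (1.88 ± 0.51, adjusted p = 0.0101). Herc6, the mouse ligase for ISG15, rose from 12.9–21.2 to 45.8–59.5 CPM (1.49 ± 0.18, adjusted p = 1.24e-06), Ifit2 from 36.5–91.6 to 128–199.6 CPM (1.32 ± 0.33, adjusted p = 0.00471) and Rsad2 (viperin) from 66.4–115 to 196–308 CPM (1.49 ± 0.44, adjusted p = 0.0187). Isg15 itself measured 67.2, 33.9, 90.4 and 70.0 CPM under control siRNA and 111, 125, 64.8 and 88.0 CPM after silencing, overlapped between groups, and was not called (0.57 ± 0.28, adjusted p = 0.162). Within replicates 1 and 2 it was called (1.21, adjusted p = 9.64e-06) and within replicates 3 and 4 it was not (−0.07, adjusted p = 0.806). The count of effectors fell to 10 without si-control replicate 1 and to 10 without si-control replicate 2, and the call of Rsad2 was lost in both of these fits (log2 fold change 1.36 to 1.62 over the fits without 1 library).

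GTPases that IFNγ is known to induce had 9 of 17 members higher and 0 lower (median 0.76). Gbp5, which promotes inflammasome assembly, measured 20.4, 21.5, 20.4 and 21.3 CPM under control siRNA and 83.1, 78.8, 31.2 and 31.8 CPM after silencing (1.43 ± 0.29, adjusted p = 0.000807). Gm4951, an interferon-inducible GTPase, rose from 3.34–8.52 to 19.2–39.3 CPM (2.22 ± 0.33, adjusted p = 2.11e-05), and Gbp4 (1.08 ± 0.26, adjusted p = 0.00374) and Gbp8 (1.09 ± 0.30, adjusted p = 0.0104) rose too. These families hold near copies, and their values are uncertain for this reason.

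The 250 bases before the start of Oas1g, Gbp5 and the chemokine gene Cxcl9, which is described below, are shown. They were picked because each holds the core of the interferon-stimulated response element (ISRE), a site bound by interferon regulatory factors. Capitals mark each match of GAAANNGAA, read on both strands. The windows are from RefSeq (GRCm38.p6), at chr5:120887614-120887863 (minus strand) for Oas1g, chr3:142496684-142496933 (plus strand) for Gbp5 and chr5:92328080-92328329 (minus strand) for Cxcl9.
Oas1g: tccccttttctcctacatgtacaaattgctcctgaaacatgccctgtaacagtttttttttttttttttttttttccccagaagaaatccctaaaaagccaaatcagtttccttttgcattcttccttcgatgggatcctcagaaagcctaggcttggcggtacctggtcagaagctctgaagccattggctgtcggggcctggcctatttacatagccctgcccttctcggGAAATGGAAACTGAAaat
Gbp5: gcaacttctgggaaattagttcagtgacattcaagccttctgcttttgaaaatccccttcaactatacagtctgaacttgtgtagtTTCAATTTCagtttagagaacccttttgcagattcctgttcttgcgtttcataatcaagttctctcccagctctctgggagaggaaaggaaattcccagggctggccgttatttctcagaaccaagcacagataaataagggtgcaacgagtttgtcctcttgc
Cxcl9: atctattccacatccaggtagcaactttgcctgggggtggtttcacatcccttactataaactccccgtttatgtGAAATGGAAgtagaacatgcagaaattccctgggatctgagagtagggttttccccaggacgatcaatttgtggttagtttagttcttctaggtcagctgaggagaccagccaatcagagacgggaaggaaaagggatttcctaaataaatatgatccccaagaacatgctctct
Overlapping matches run together in the capitals. A match was present in 7.13% of 32851 RefSeq windows of the same length and orientation. It was present in 4 of the 20 MHC class I genes with a window (23 tested), and the share could not be given for the sensors, effectors, regulators and GTPases, of whose members under 80% had a window. Among other named genes, the windows of the called Ifih1 and Cxcl10 each held 1 match, and those of the called Irf7, Herc6, Ifit2 and Ddx58 held 0. The windows of Isg15 and B2m, which were not called, held 3 and 1. The 3 genes shown were picked, so their matches say nothing of rises in general. A match is a description of the letters and was not tested for binding.

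In MHC class I presentation, 14 of 23 tested genes were higher and 0 lower (21 and 0 in replicates 1 and 2, 13 and 0 in replicates 3 and 4), every member had a change above 0, and the median was 0.54. H2-Q7 rose from 2.33–2.77 to 8.13–20.1 CPM (2.44 ± 0.56, adjusted p = 0.00258), H2-Q4 from 30.0–54.7 to 67.2–129 CPM (1.35 ± 0.33, adjusted p = 0.00433) and Psmb9, an immunoproteasome subunit, from 2.12–4.31 to 6.31–11.4 CPM (1.498 ± 0.20, adjusted p = 4.3e-06). The light chain B2m measured 1226, 1260.1, 888 and 918 CPM and then 1844, 1806, 1033 and 1015 CPM and was not called (0.41 ± 0.23, adjusted p = 0.232), while the replicate block called it (adjusted p = 0.00165). Of the 9 class II genes 0 were called by edgeR, with 1 at an unadjusted p under 0.05, and 1 was called by DESeq2 or with the block. Their median of 0.83 became 0.07 once genes with a group at 0 were set to their bound.

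**Figure D3:**
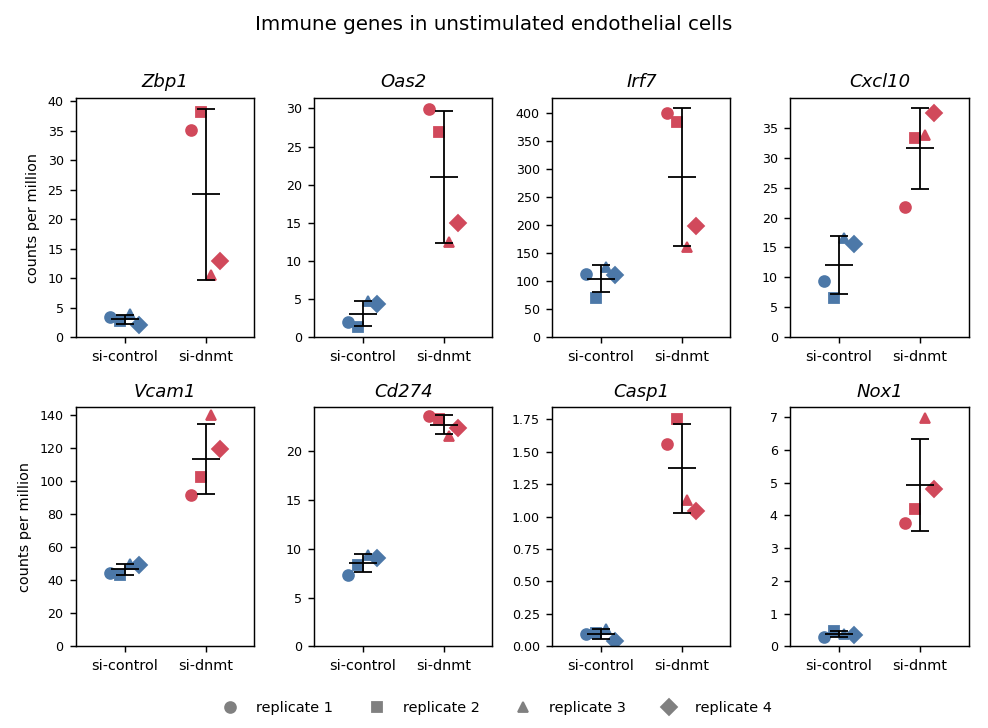
CPM of 8 immune genes by group, with the marker shape giving the replicate and the black bars the mean and SD. Each si-dnmt value lay above each si-control value of the same gene, for example 10.5 to 38.2 CPM against 2.06 to 3.87 CPM for Zbp1.

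Chemokines, the secreted cues for leukocyte entry, were the list with the highest median (1.39). Of 17 tested members 10 were higher (58.8%, beside 9.57% of all genes) and 0 lower. Cxcl10, a ligand of CXCR3 on effector T cells, measured 9.48, 6.57, 16.6 and 15.7 CPM under control siRNA and 21.7, 33.3, 33.8 and 37.4 CPM after silencing (1.38 ± 0.29, adjusted p = 0.000952). Cxcl9, another CXCR3 ligand, had 1, 3, 1 and 1 counts and then 30, 55, 20 and 14 counts, or 16.3-fold (95% exact Poisson interval 7.26 to 45.2) by summed counts (adjusted p = 0.0164). Its call was lost without si-dnmt replicate 2, the highest library (adjusted p = 0.0606).

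Neutrophil chemokines of the CXCR2 family rose mostly in replicates 3 and 4. Cxcl2 measured 1.45, 2.65, 0.308 and 0.0448 CPM under control siRNA and 2.67, 5.30, 17.1 and 12.1 CPM after silencing (3.11 ± 0.53, adjusted p = 0.000106), and its change was 0.98 in replicates 1 and 2 and 6.32 in replicates 3 and 4 (set difference adjusted p = 2.01e-06). For Cxcl2, control replicate 4 lay below the level of 3 counts (0.134 CPM) and control replicate 3 not far above it (0.132 CPM). The size of its change in replicates 3 and 4 is therefore uncertain. Cxcl5 went from 19.3, 30.6, 25.4 and 24.1 CPM to 37.5, 48.9, 162 and 126 CPM (1.91 ± 0.40, adjusted p = 0.00104). Cxcl1 overlapped between groups, at 17.8, 47.8, 6.77 and 8.74 CPM and 43.2, 47.7, 118 and 78.1 CPM (1.83 ± 0.43, adjusted p = 0.00316), and was called within replicates 3 and 4 (adjusted p = 1.7e-10) but not within replicates 1 and 2 (adjusted p = 0.216; set difference adjusted p = 5.9e-06). Ccl20, the ligand of CCR6, rose from 0–0.265 to 0.534–1.40 CPM (3.37 ± 0.70, adjusted p = 0.00104).

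Among other secreted factors, 3 of 16 tested cytokines and growth factors were higher (18.8%, beside 9.57% of all genes) and 0 lower, or 6 higher with the replicate block. The list's median was 1.13, or 0.86 with genes at 0 in a group set to their bound. Lif, a cytokine of the IL-6 family, rose from 0.583–1.05 to 1.42–5.11 CPM (2.19 ± 0.31, adjusted p = 1.04e-05), and Csf1 is described above. The third called member, Tnfsf15, was at 0 in the 4 control libraries and did not exceed 3 counts after silencing, so no fold is given. Its call was lost in each fit without 1 control library and in that without si-dnmt replicate 3 (highest adjusted p = 0.0836).

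NF-κB feedback genes and targets had 8 of 26 members higher (30.8%, beside 9.57% of all genes) and 1 lower (median 0.24). Tnfaip3, the A20 enzyme that restrains NF-κB, measured 19.6, 22.6, 20.1 and 19.8 CPM under control siRNA and 31.9, 36.8, 63.0 and 58.9 CPM after silencing (1.22 ± 0.17, adjusted p = 1.19e-05). Cyld, another deubiquitinase that restrains the pathway, fell from 103–121 to 56.7–63.0 CPM (−0.90 ± 0.16, adjusted p = 0.000154). In a fit of the 8 libraries alone the list had 4 members higher, and with the replicate block 12. The list's median was 0.06 in replicates 1 and 2 and 0.63 in replicates 3 and 4.

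Of 21 adhesion and junction genes 3 were higher (14.3%, beside 9.57% of all genes) and 1 lower, with a median of −0.09. Vcam1, the ligand of integrin α4β1 on lymphocytes, measured 44.5, 43.5, 49.8 and 49.6 CPM under control siRNA and 91.4, 103, 139.8 and 119.6 CPM after silencing (1.28 ± 0.11, adjusted p = 5.67e-09). Sele (E-selectin), which mediates rolling, went from 27.0–35.8 to 54.0–65.5 CPM (1.01 ± 0.25, adjusted p = 0.00422), and Icam1 from 147–309.5 to 317–458 CPM (0.80 ± 0.22, adjusted p = 0.00974). Jam3, a tight junction protein, fell from 33.4–40.2 to 7.71–16.4 CPM (−1.62 ± 0.40, adjusted p = 0.00449). The other 17 were not called, among them Cdh5 (VE-cadherin, 0.06 ± 0.23, adjusted p = 0.893) and Pecam1 (−0.09 ± 0.17, adjusted p = 0.76). With the replicate block 5 members rose and 8 fell.

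Surface ligands that co-stimulate or inhibit T cells had 7 of 13 tested members higher (53.8%, beside 9.57% of all genes) and 1 lower. Tnfsf4, the OX40 ligand, measured 3.66, 5.14, 3.03 and 2.96 CPM under control siRNA and 21.2, 17.1, 21.2 and 19.4 CPM after silencing (2.42 ± 0.22, adjusted p = 1.64e-08). Cd274, the checkpoint ligand PD-L1, went from 7.27, 8.32, 9.32 and 9.06 CPM to 23.6, 23.3, 21.5 and 22.3 CPM (1.42 ± 0.25, adjusted p = 0.000187). Both the co-stimulatory and the inhibitory ligand were higher in all 4 silenced libraries. Tnfrsf14, the HVEM receptor that binds BTLA, rose from 0.583–1.275 to 2.01–2.67 CPM (1.41 ± 0.21, adjusted p = 2.62e-05), and Pvr fell (−0.98 ± 0.22, adjusted p = 0.00169). In a fit of the 8 libraries alone 4 members were higher, and with the replicate block 2 were lower.

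Icosl, the ICOS ligand, stayed close to the floor of detection in resting cells. It had 0, 1, 0 and 1 counts in si-control and 1, 2, 14 and 3 counts in si-dnmt, or 8.20-fold (95% exact Poisson interval 1.99 to 72.4) by summed counts (adjusted p = 0.0298). The highest value came from si-dnmt replicate 3, and without that library the log2 fold change was 1.54 and not called (adjusted p = 0.308). The call was also lost without si-control replicate 1 or 3.

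Inflammasome genes had 5 of 17 members higher (29.4%, beside 9.57% of all genes) and 0 lower, or 5 and 1 with the replicate block (median 0.56). Besides Casp1 and P2rx7 these were the cytosolic DNA receptor Aim2, which went from 8.54, 9.43, 8.75 and 9.28 CPM to 15.6, 15.5, 15.9 and 14.5 CPM (0.77 ± 0.10, adjusted p = 4.2e-06), the flagellin sensor subunit Naip5 (1.43 ± 0.35, adjusted p = 0.00422) and the lipopolysaccharide sensor Casp4, the mouse caspase-11 (0.56 ± 0.14, adjusted p = 0.00452). Aim2 was nearly equal in the 4 libraries of each group. Near copies of Naip genes may share reads.

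Genes of oxidant handling had 5 of 24 members higher (20.8%, beside 9.57% of all genes) and 1 lower. With the replicate block 11 were higher, beside 16.6% of all genes. Hmox1, the inducible heme oxygenase, rose from 267, 296, 308 and 288 CPM to 474, 535, 1031 and 951 CPM (1.37 ± 0.38, adjusted p = 0.0106). Catalase (Cat) rose from 102–171 to 208–446 CPM (1.17 ± 0.32, adjusted p = 0.011), a call lost without si-dnmt replicate 3 (adjusted p = 0.0597). Gpx4, which reduces lipid peroxides, fell (−0.37 ± 0.09, adjusted p = 0.00393). Hmox1 and Cat were both highest in silenced replicates 3 and 4.

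Targets of p53 had 12 of 30 members higher (40%, beside 9.57% of all genes) and 0 lower, or 13 and 1 with the replicate block (median 0.31). Ccng1 (cyclin G1) measured 239, 234, 266 and 280.0 CPM under control siRNA and 520.4, 565, 776 and 713 CPM after silencing (1.34 ± 0.14, adjusted p = 8.02e-08). Sesn2 (1.14 ± 0.19, adjusted p = 7.08e-05), the death receptor Fas (1.12 ± 0.24, adjusted p = 0.00129) and Plk3 (1.11 ± 0.35, adjusted p = 0.0267) rose, and Cdkn1a, the p21 inhibitor of cyclin-dependent kinases, went from 165–203 to 234–312 CPM (0.58 ± 0.15, adjusted p = 0.00617). The call of Plk3 was lost when control replicate 1, 2 or 4, or silenced replicate 3 or 4, was left out, with a log2 fold change of 0.94 to 1.28 over the fits without 1 library.

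Cell cycle genes split by replicate set. Over all 4 replicates 1 of 36 rose (2.78%, beside 9.57% of all genes), 2 fell (beside 8.89% of all genes) and 33 were not called. With the replicate block 3 rose and 3 fell. The median without the block was −0.34. Ccne1 (cyclin E1), which drives entry into S phase, rose from 4.32, 4.88, 6.81 and 6.05 CPM to 10.0, 13.0, 14.2 and 14.0 CPM (1.21 ± 0.16, adjusted p = 4.2e-06). Mki67, the proliferation marker, measured 161, 170.0, 331 and 324 CPM under control siRNA and 160.0, 199, 213 and 169 CPM after silencing and was not called (−0.41 ± 0.28, adjusted p = 0.333). The control level of Mki67 in replicates 3 and 4 was above all other libraries.

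Within replicates 1 and 2, 6 cell cycle genes rose and 0 fell, and within replicates 3 and 4, 1 rose and 27 fell. The set difference was called for 26 of the 36, and the change was lower in replicates 3 and 4 for all 36. Rrm2, a subunit of ribonucleotide reductase, measured 37.8, 29.4, 79.3 and 70.7 CPM and then 24.7, 31.4, 28.5 and 31.9 CPM (−0.90 ± 0.28, adjusted p = 0.0219), with changes of −0.26 in replicates 1 and 2 and −1.31 in replicates 3 and 4 (set difference adjusted p = 7.47e-05). Thymidylate synthase (Tyms) fell (−0.51 ± 0.16, adjusted p = 0.0259). The call of Rrm2 was lost when control replicate 3 or 4, or silenced replicate 1 or 3, was left out (−1.11 to −0.66 over the fits without 1 library), and that of Tyms when control replicate 1 or 3, or silenced replicate 3 or 4, was left out (−0.58 to −0.42) or with library totals as the scaling. In the fits without 1 library the number of cell cycle genes called lower ran from 0 (leaving out control or silenced replicate 3) to 4 (leaving out control replicate 2), and 1 was called lower when control replicate 1 or 4, or silenced replicate 1 or 4, was left out.

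Without the replicate block, genes that define ECs were mostly not called, although only 4 of the 32 tested had a change above 0. Of 32 tested, 1 rose and 2 fell, beside 9.57% higher and 8.89% lower over all genes. The other 29 were not called, and the median was −0.34. Kdr (VEGFR2), the main VEGF receptor, measured 327, 344, 334 and 348 CPM under control siRNA and 526, 485, 547 and 504 CPM after silencing (0.61 ± 0.14, adjusted p = 0.00278). Nos3, the endothelial nitric oxide synthase, fell from 235–269 to 155–195 CPM (−0.46 ± 0.12, adjusted p = 0.00833), and Ramp2, which pairs with CALCRL to form an adrenomedullin receptor, from 63.7–116 to 45.1–50.3 CPM (−0.88 ± 0.15, adjusted p = 9.57e-05). Vwf was 0.29 within replicates 1 and 2 and −1.07 within replicates 3 and 4 (overall −0.38 ± 0.26, adjusted p = 0.336; set difference adjusted p = 4.87e-05). Within replicates 1 and 2, 1 of the 32 members rose and 12 fell, beside 14.0% higher and 12.1% lower over all genes. Within replicates 3 and 4, 1 rose and 21 fell, beside 17.2% and 18.1% of all genes. With the replicate block 1 member rose and 18 fell, beside 16.6% and 15.8% of all genes.

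In the arterial, venous and lung capillary lists, 2 of 16, 0 of 10 and 3 of 14 genes fell, beside 8.89% of all genes. The shares called higher were 6.25%, 10% and 0%, in that order, beside 9.57% of all genes. In the arterial and Notch list 1 of 16 rose, the Notch ligand Jag1 (90.6, 80.2, 102 and 100.5 CPM to 187, 208, 269.8 and 240.2 CPM, 1.28 ± 0.14, adjusted p = 2.95e-07), and 2 fell. The receptor Notch1 fell from 215–249 to 122–169 CPM (−0.70 ± 0.12, adjusted p = 8.44e-05), so ligand and receptor went opposite ways. Cxcr4, a receptor of tip cells, fell (−1.85 ± 0.62, adjusted p = 0.0384), with groups that overlapped and a call lost when control replicate 1 or 2, or silenced replicate 2, 3 or 4, was left out (−2.19 to −1.49 over the fits without 1 library). With the block 5 fell in that list. The gap junction gene Gja4 did not exceed 3 counts in any library, so no fold is given.

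Among 10 venous genes the 1 called was Vcam1, and with the replicate block 2 fell. Nr2f2 (COUP-TFII), the venous regulator, measured 119, 125, 94.9 and 105 CPM under control siRNA and 88.4, 88.9, 55.1 and 49.3 CPM after silencing without overlap but missed the threshold (−0.66 ± 0.25, adjusted p = 0.0684), and with the block it was called (adjusted p = 0.000223). Leaving out si-dnmt replicate 1, or replicate 2, also brought it under the threshold. Of 14 lung capillary genes 0 rose and 3 fell (median −0.72), Aqp1 and Btnl9 as above and Ramp3 (−1.35 ± 0.46, adjusted p = 0.0392), whose call was lost when control replicate 1 or 2, or silenced replicate 3 or 4, was left out (−1.55 to −1.11 over the fits without 1 library). With the block 1 of the 14 rose and 8 fell, beside 16.6% higher and 15.8% lower over all genes. Within replicates 1 and 2, 1 rose and 9 fell, beside 14.0% and 12.1% of all genes. Within replicates 3 and 4, 1 rose and 8 fell, beside 17.2% and 18.1% of all genes.

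Genes of vascular tone and permeability had 3 of 31 members higher (9.68%, beside 9.57% of all genes) and 9 lower (beside 8.89% of all genes). With the block 7 were higher and 14 lower, beside 16.6% and 15.8% of all genes. Calcb, a precursor of the vasodilator CGRP, fell from 0.375–1.23 to 0.0445–0.174 CPM (−2.80 ± 0.65, adjusted p = 0.00267). Ramp2 and Ramp3, which form adrenomedullin receptors with CALCRL, fell as given above, and Ptgs2 rose. Ramp1, the partner of CALCRL in the CGRP receptor, did not exceed 4 counts and was not tested. Without si-dnmt replicate 3 the list had 5 members lower, and 5 in a fit of the 8 libraries alone.

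Matrix and mesenchymal genes went both ways, with 5 of 32 higher (15.6%, beside 9.57% of all genes) and 5 lower (beside 8.89% of all genes). The median was 0.08. Acta2, smooth muscle α-actin, measured 9.53, 6.94, 23.9 and 19.6 CPM under control siRNA and 38.6, 75.3, 179.7 and 134 CPM after silencing (2.83 ± 0.54, adjusted p = 0.000433). The fibrillar collagen Col3a1 (−1.54 ± 0.29, adjusted p = 0.000417), the gelatinase Mmp2 (−1.24 ± 0.15, adjusted p = 1.55e-06) and the intermediate filament gene Vim (−0.85 ± 0.22, adjusted p = 0.00623) fell. Col3a1, Mmp2 and Vim were picked after their values were seen, and Thbs1, of the same list, rose as given above. Mmp3 had 10, 9, 3 and 4 counts in si-control and 0, 0, 2 and 1 counts in si-dnmt, 10.6-fold (95% exact Poisson interval 3.24 to 54.6) lower by summed counts (adjusted p = 0.00922). The 8 pericyte and smooth muscle markers, which include Acta2, summed to 7.998 to 28.02 CPM under control siRNA and 40.3 to 185 CPM after silencing. Acta2 made up most of both sums, so the higher sum was mainly the rise of Acta2. Mean CPM after silencing was also higher for Myh11, Notch3 and Des, and lower for Pdgfrb, Kcnj8, Rgs5 and Cspg4. Rgs5, Cspg4 and Des had no more than 3 counts in every library, and 2 of 4 tested markers rose. In such bulk libraries more cells of a type and more RNA per cell cannot be told apart.

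Targets of promoter methylation were examined because Dnmt1 is known to keep them silent. Of 36 germline genes, 30 were below the count filter, 11 of them with no count in any of the 8 libraries and none over 12 counts in a library. Of the 6 tested, Rhox5, an X-linked homeobox gene, rose from 0.375, 0.106, 0.308 and 0.179 CPM to 1.07, 0.513, 0.682 and 0.660 CPM (1.55 ± 0.41, adjusted p = 0.00856) and the other 5 were not called. The call of Rhox5 was lost with replicates 1 and 2 alone and with replicates 3 and 4 alone. The share called higher was 16.7% of the 6, beside 9.57% of all genes. With the block 2 of the 6 rose, beside 16.6% of all genes. A count of 0 in a library allows up to 3 counts, a mean of 0.141 CPM for the control and 0.117 CPM for the silenced libraries, for counting error only.

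Of 40 imprinted genes, 25 were tested, and 2 rose, 1 fell and 22 were not called, or 5 rose and 5 fell with the block. The share called higher was 8%, beside 9.57% higher and 8.89% lower over all genes. Peg10, a retrotransposon-derived gene expressed from the paternal allele, measured 2.25, 2.28, 5.23 and 2.96 CPM under control siRNA and 11.6, 12.7, 25.8 and 18.8 CPM after silencing (2.43 ± 0.45, adjusted p = 0.000276). The amino acid transporter Slc38a4 rose (0.39 ± 0.13, adjusted p = 0.0342) with overlapping groups, a call lost when control replicate 1, 3 or 4, or silenced replicate 1 or 2, was left out (0.31 to 0.54 over the fits without 1 library), in a fit of the 8 libraries alone and without the count filter. Ndn (necdin) fell from 43.2–50.1 to 25.01–33.96 CPM (−0.64 ± 0.13, adjusted p = 0.000713). With control replicate 1 or 4, or silenced replicate 4, left out, 2 imprinted genes were called lower. H19 and the other 14 imprinted genes below the filter did not exceed 4 counts.

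The CpG before the start are shown for 5 called genes, Casp1 and Nox1 among the rises, Dnmt3b as a rise with a CpG-rich start, and Aqp1 and Grem1 among the falls. Whether these CpG carried methyl marks is not known. Capitals mark CpG in the 250 bases before the start, from RefSeq (GRCm38.p6).
Casp1: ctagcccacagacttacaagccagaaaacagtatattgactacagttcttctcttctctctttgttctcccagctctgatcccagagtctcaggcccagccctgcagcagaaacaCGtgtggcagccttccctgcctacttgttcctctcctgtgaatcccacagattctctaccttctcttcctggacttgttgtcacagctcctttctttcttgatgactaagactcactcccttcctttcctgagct
Nox1: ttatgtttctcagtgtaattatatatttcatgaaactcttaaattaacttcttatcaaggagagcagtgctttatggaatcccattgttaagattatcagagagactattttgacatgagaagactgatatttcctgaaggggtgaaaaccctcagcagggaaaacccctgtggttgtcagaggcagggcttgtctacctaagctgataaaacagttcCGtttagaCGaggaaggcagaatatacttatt
Dnmt3b: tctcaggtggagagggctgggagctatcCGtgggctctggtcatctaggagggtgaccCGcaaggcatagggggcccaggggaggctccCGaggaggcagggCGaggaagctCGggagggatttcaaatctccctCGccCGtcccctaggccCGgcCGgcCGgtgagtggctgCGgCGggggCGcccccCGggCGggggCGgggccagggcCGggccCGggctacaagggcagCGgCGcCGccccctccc
Aqp1: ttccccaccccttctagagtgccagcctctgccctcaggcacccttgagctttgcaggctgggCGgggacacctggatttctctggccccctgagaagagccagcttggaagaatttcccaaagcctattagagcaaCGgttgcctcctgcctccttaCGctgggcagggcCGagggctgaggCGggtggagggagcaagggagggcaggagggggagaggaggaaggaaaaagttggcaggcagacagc
Grem1: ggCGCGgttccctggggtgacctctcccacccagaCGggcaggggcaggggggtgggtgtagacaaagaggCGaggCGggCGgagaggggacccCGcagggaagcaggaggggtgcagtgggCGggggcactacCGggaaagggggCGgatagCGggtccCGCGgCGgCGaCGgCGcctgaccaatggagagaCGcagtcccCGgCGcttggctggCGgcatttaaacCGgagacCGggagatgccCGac
The windows lie at chr9:5298267-5298516 (plus strand), chrX:134111855-134112104 (minus strand), chr2:153649199-153649448 (plus strand), chr6:55336049-55336298 (plus strand) and chr2:113758649-113758898 (minus strand), in that order. They hold 1, 2, 21, 5 and 24 CpG, beside a median of 6 over all 32851 windows. The 5 genes were picked, so these counts say nothing of rises or falls in general. A comparison of CpG content between called and other genes was void, because windows were matched for 70.2% of tested genes (78.2% of the genes called higher and 72.5% of those called lower). DNA methylation was not measured in these libraries.

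**Figure D4:**
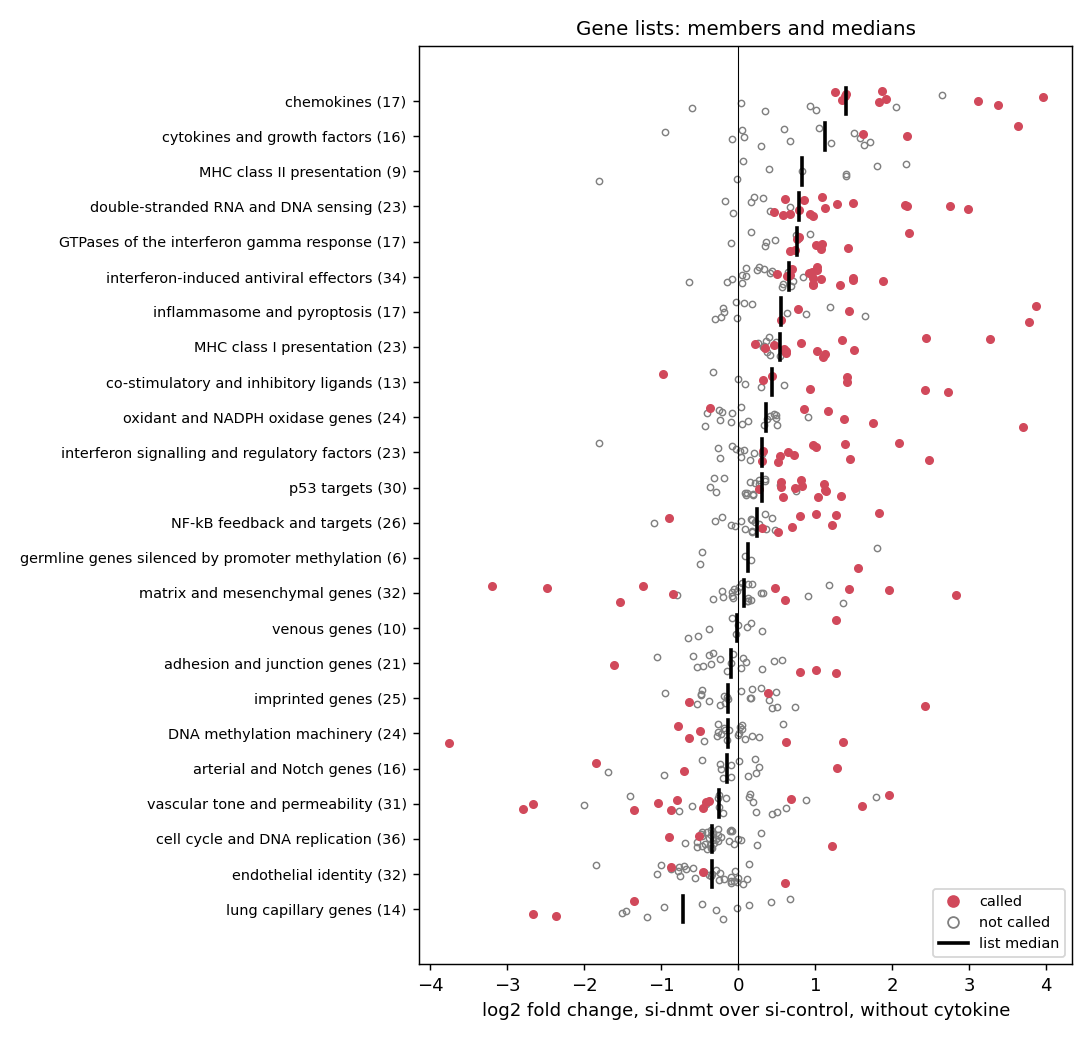
Log2 fold change of every tested member of 24 gene lists, with filled points for called genes, open points for the others, a black bar at each list's median and the number tested in brackets. Chemokines had the highest median (1.39) and lung capillary genes the lowest (−0.72), beside −0.00 over all genes tested.

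The siRNA effect was also compared between the 2 replicate sets, each with 2 libraries per group. Because the sets were defined from these same data, the tests between them describe a split already seen. Within replicates 1 and 2, 2128 genes were called higher (14.0%) and 1840 lower (12.1%), and within replicates 3 and 4, 2626 (17.2%) and 2760 (18.1%). Shared between the sets were 1360 genes called higher, 63.9% and 51.8% of the respective lists, and 1310 called lower, 71.2% and 47.5%, while 73 were called in opposite directions. The set difference itself was called for 1141 genes (7.48%), of which 336 had the higher change in replicates 3 and 4 (2.20%) and 805 in replicates 1 and 2 (5.28%).

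The lists fell on both sides of this difference. The sensors, effectors, GTPases and MHC class I genes had higher medians in replicates 1 and 2, and the interferon regulators had nearly the same median in both sets (0.32 in replicates 1 and 2 and 0.31 in replicates 3 and 4). Over the 119 genes of the 5 interferon-related lists the change was larger in replicates 1 and 2 for 107, and the set difference was called for 67. The medians were 1.21 in replicates 1 and 2 and 0.44 in replicates 3 and 4 for the sensors, 1.05 in replicates 1 and 2 and 0.20 in replicates 3 and 4 for the effectors and 1.21 in replicates 1 and 2 and 0.09 in replicates 3 and 4 for the GTPases. In replicates 3 and 4, 12 effectors were called higher and 5 lower, against 30 and 0 in replicates 1 and 2, and 5 GTPases higher and 1 lower, against 16 and 0.

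The NF-κB, chemokine and cytokine lists had higher medians in replicates 3 and 4. For NF-κB genes the set difference was called for 13 of 26, for chemokines for 7 of 17 and for cytokines for 5 of 16. The chemokine median was 1.01 in replicates 1 and 2 and 1.68 in replicates 3 and 4. Targets of p53 had medians of 0.35 in replicates 1 and 2 and 0.45 in replicates 3 and 4, with the set difference called for 5 of 30. Dnmt1 itself fell by more in replicates 3 and 4, and the cause of the set difference was not tested.

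Of the 112 genes named by rule and tested, the set difference was called for 38, and the log2 fold changes in replicates 1 and 2, and then in replicates 3 and 4, are given here for those whose set values are not given elsewhere. Among the sensors they were 3.56 and 1.98 for Zbp1, 4.07 and 1.601 for Oas2, 3.34 and 1.31 for Oas3 and 1.266 and 0.63 for Ifih1, and among the regulators 2.10 and 0.61 for Irf7 and 1.68 and 1.00 for Nlrc5. The effectors gave 3.06 and 1.16 for Mx1, 2.14 and 0.63 for Ifit2, 2.03 and 0.96 for Rsad2, 1.82 and 1.17 for Herc6 and 1.21 and −0.07 for Isg15. The GTPases gave 3.25 and 1.25 for Gm4951, 1.95 and 0.59 for Gbp5 and 1.72 and 0.41 for Gbp4, and the class I presentation genes 2.82 and 1.85 for H2-Q7 and 2.16 and 0.89 for Psmb9. The interferon-induced Rnf213 had 1.20 and 0.47. In all of these the change was higher in replicates 1 and 2, and for Isg15 its sign differed between the sets.

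Among inflammatory and stress genes the values were 0.80 and 2.54 for Cxcl5, 0.71 and 1.61 for Tnfaip3, 0.57 and 1.17 for Icam1 and 1.07 and 1.91 for Ptgs2, and 1.40 and 1.82 for Csf1, 1.11 and 1.70 for Thbs1 and 0.84 and 1.73 for Hmox1, each higher in replicates 3 and 4. Among the genes that fell they were −2.07 and −3.80 for Aqp1, −0.42 and −1.08 for Ehmt2, −0.44 and −1.21 for Ramp2, −1.31 and −2.06 for Jam3 and −1.62 and −2.36 for Eif5a2, each lower in replicates 3 and 4, and −2.41 and −1.53 for Nov, lower in replicates 1 and 2. The uncalled genes Mki67 and Nr2f2 had 0.12 and −0.78, and −0.46 and −0.93.

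**Figure D5:**
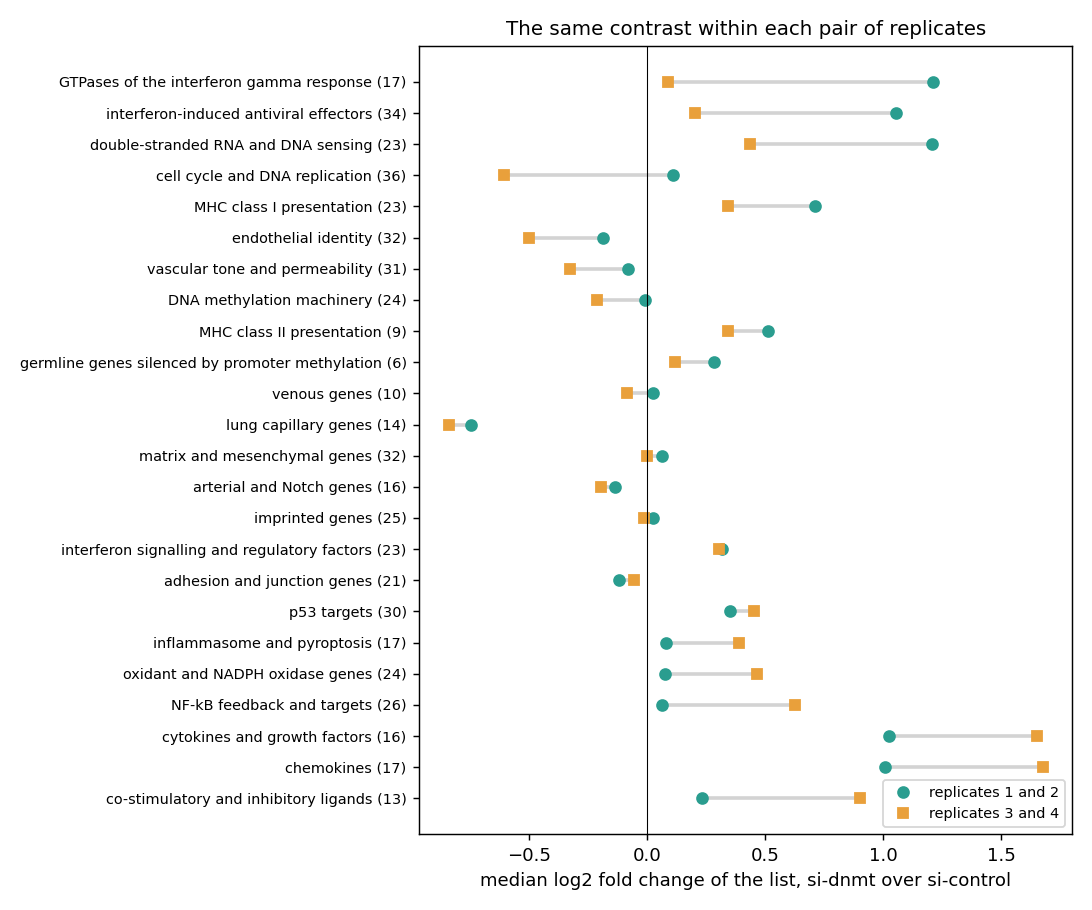
Median log2 fold change of each of the 24 lists within replicates 1 and 2 (circles) and within replicates 3 and 4 (squares), ordered by the difference, with the number of genes tested in brackets. The GTPases, at 1.21 against 0.09, sit at the top with the antiviral effectors, the sensors and the cell cycle genes, and the chemokine, cytokine and co-stimulatory lists at the bottom.

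The silencing effect without cytokine was set against its effect in each cytokine state, which used separate libraries. The difference was called for 5 genes against TNF (0.0328%), with the higher change at rest in 4 (0.0262%) and the lower in 1 (0.00656%). It was called for 7 against IFN (0.0459%), with the change higher at rest in all 7, and for 81 against both together (0.531%), higher at rest in 57 (0.374%) and lower in 24 (0.157%). With the replicate block these counts were 135, 59 and 638. Zbp1 rose by 2.99 without cytokine, beside 0.59 with TNF, 0.06 with IFN and 0.06 with both. The differences were 2.40 ± 0.41, adjusted p = 0.015 for TNF, 2.93 ± 0.41, adjusted p = 0.000597 for IFN and 2.93 ± 0.41, adjusted p = 0.000299 for both.

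For Vcam1 the change was 1.28 at rest, beside 0.25 with TNF (difference 1.02 ± 0.15, adjusted p = 0.00556) and 0.43 with both (0.85 ± 0.15, adjusted p = 0.00637). With IFN it was 1.04, and that difference was not called (0.23 ± 0.15, adjusted p = 1). Cd274 gave 1.42 at rest and −0.27 with IFN, a difference that missed the threshold (1.68 ± 0.34, adjusted p = 0.0595), beside 0.69 with TNF (0.73 ± 0.34, adjusted p = 0.73) and 0.32 with both (1.10 ± 0.34, adjusted p = 0.184). The difference for Dnmt1 was 0.11 ± 0.48, adjusted p = 1 for TNF, 0.19 ± 0.48, adjusted p = 1 for IFN and 0.32 ± 0.48, adjusted p = 0.928 for both cytokines.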

How the data were processed

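RNA was extracted from the cells, and bulk libraries were prepared and sequenced by a service provider. The authors trimmed the reads and counted them over genes, and the deposited merged table holds raw counts per gene symbol, with no normalization. The submitters' processing notes name cutadapt 4.9, FastQC 0.12.1, MultiQC 1.27.1, featureCounts and DESeq2. No aligner, build, gene annotation or strand setting is given in the sources used here, and genes with near copies or overlapping neighbours are uncertain.

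Counts of all 32 libraries were fitted in edgeR 4.0.16 (R 4.3.3) with TMM factors, 1 mean per group and the quasi-likelihood F test, after the filterByExpr filter at a minimum count of 10, which kept 15250 symbols. The replicate-set model had 16 means, 1 for each group and set. All adjusted p-values in the text come from these edgeR fits over all tested genes by the Benjamini-Hochberg method. Ratios of summed counts carry 95% exact Poisson intervals, which, like the floor of 3 counts, cover counting error only, since reads without molecular identifiers are not independent molecules. Alternatives used DESeq2 1.42.0, other scalings, no filter, the 8 libraries alone, the replicate block, each replicate set and each library left out.

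Same-numbered si-control and si-dnmt libraries deviated together from their group means in all 4 pairs (r = 0.450 to 0.513). Other pairs within a replicate set gave 0.484 to 0.563 and pairs across sets −0.521 to −0.440, and 1 of the 4 control libraries correlated best with its own number. Replicates differed by more than sampling noise (chi-square per degree of freedom 7.64 to 105 over 12 pairs).

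The comparison, the gene lists and the replicate sets were chosen with earlier results of these data known. Genes were named by a rule: 32 chosen genes, the 12 largest called changes and the 5 largest changes of mean CPM each way without overlap, up to 4 called members a list, and genes that went from at most 3 to at least 10 counts. The 12 largest changes were taken among genes with a mean CPM of at least 1 in the higher group. Predicted genes and pseudogenes were left out of the rankings. Gpx4, Cyld, Pvr, Casp4, Vim, Mmp2, Col3a1 and Gm28321 lie outside it and were picked after their values were seen, and 3 genes the rule gives are not reported here. On simulated counts over 14924 genes the test recovered 59 of 89 genes changed by 1 on the log2 scale (66.3%) and 95 of 107 changed by 2 (88.8%), with 8 false calls. The simulation had no replicate sets and no cytokine effects, so these rates need not hold for the real libraries.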

Additional observations from a re-analysis of the deposited data

Results flagged for a closer look

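Among 223 groups of 4 libraries examined for a single distant value, 5 held one by Dixon's criterion (2.24%), where chance alone would mark about 1 in 20. Cxcl9 measured 0.159 CPM in si-control replicate 2, the highest of its group, and Fat2 0.359 CPM in si-control replicate 4, also the highest. Icosl measured 0.478 CPM in si-dnmt replicate 3, the library on which its call rested, and Gja4 0.0890 CPM in si-dnmt replicate 1, a value of 2 counts. Sele measured 54.0 CPM in si-dnmt replicate 1, the lowest of its group and still above all control libraries.

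The siRNA effect at rest differed from that with cytokine for 2 of the chosen genes reported here, by edgeR's test of the difference. For Zbp1 the log2 fold change at rest exceeded that with TNF by 2.40, that with IFN by 2.93 and that with both by 2.93. For Vcam1 it exceeded that with TNF by 1.02 and that with both by 0.85. The comparisons with the 3 cytokine states share the resting libraries, and the cause of the differences was not tested.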

How the results depend on the processing

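Of 100 named calls, 78 held under all 18 alternatives and 3 under the 16 or 17 that gave them a value, 13 were lost in some fit without 1 library and 10 in another alternative with all 4 replicates, and no called gene changed direction (0 genes). The fall of Dnmt1 ran from −3.96 to −3.62 over the fits without 1 library. Those fits called 1991 to 2636 genes, 1087 to 1394 higher and 904 to 1242 lower, fewest without si-dnmt replicate 3. DESeq2 called 3174. With the replicate block, 4942 genes were called, 2530 higher and 2412 lower, B2m and Nr2f2 were gained, and no named call was lost. Replicates 3 and 4 alone gave 5543, 2683 higher and 2860 lower. A further limit of 2-fold left 616, 386 higher and 230 lower, and without a count filter 862 were lower. The effect at rest differed from that with TNF, IFN and both for 135, 59 and 638 genes with the block, and without the filter for 2 with TNF and 12 with IFN. Calls lost in a fit of the 8 libraries alone were 8 of those named, Cxcl1, Icam1, Tet3 and mt-Nd4 among them. The causes of these shifts were not tested.

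Directions turned for 9 named genes, all uncalled. With replicates 1 and 2 alone Gja4 was 3.02, Mki67 0.13, Uhrf1 0.046 and Vwf 0.30, and with replicates 3 and 4 alone Ifnb1 was −0.34, Isg15 −0.072 and Tet2 −0.13. Over the fits without 1 library Cdh5 ran from −0.082 to 0.28, Gja4 from −2.31 to 0.23, Ifnb1 from −0.12 to 1.30, Pecam1 from −0.19 to 0.077 and Tet2 from −0.025 to 0.18. Of 432 list medians under alternatives, 369 moved by less than 1 SD and 16 changed sign, all in lists of methylation, germline, imprinted, adhesion, venous, cell cycle and matrix genes. Genes near the floor of 3 counts, such as Icosl, Tnfsf15, Gja4 and Ifnb1, were limited by depth.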
